A study of Mus musculus with 24 samples.

Results

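Cry1, Cry2, Ciart, Bhlhe40 and Bhlhe41 encode repressors of the circadian clock, and their RNA was followed through a day in the mouse retinal pigment epithelium (RPE), the pigmented layer behind the photoreceptors. The 5 genes were taken by their symbols from a table of 54532 genes, where each symbol has 1 row. All 5 were among the 18065 genes with enough counts to be tested. The 24 mice fell into 8 groups of 3, sampled at 0, 1, 3, 5, 6, 9, 15 and 16 h after the lights came on, with 1 library per mouse. Every mouse was wild type, of strain 129S1/SvlmJ, with the Leu450 form of Rpe65, and was raised on a standard diet in 12-h cyclic light that came on at 7 am. The series was made to look at daily regulation of autophagy and lysosomal genes. Times of 1 to 9 h are called day here, 15 and 16 h are called night, and 0 h is light onset. No animals kept in constant darkness are among the samples, so a response to light and a rhythm that runs without it cannot be told apart.

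The mammalian clock is a loop in which a pair of activators, Bmal1 (gene Arntl) and Clock, bind short DNA elements named E boxes and drive the genes of their own repressors. Cryptochromes, made from Cry1 and Cry2, bind Period proteins and shut the activators off, and Cry1 is known as the repressor that acts late in the cycle. Ciart (also named Chrono) binds Bmal1 and represses it by another route. Bhlhe40 and Bhlhe41 (Dec1 and Dec2) are transcription factors that compete with the activators for E boxes. Such loops run in most tissues, the RPE included, where uptake of shed photoreceptor tips peaks after light onset.

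Start windows of 4 of the 5 genes were at hand from RefSeq (build GRCm38.p6), each with 250 bases before the annotated start and 50 after it, and that of Bhlhe40 is not shown. They are printed because E boxes are the elements through which the activators and the Bhlhe proteins are known to act on these genes. Capitals mark E boxes (CACGTG) and a variant with 1 base changed (CACGTT, which reads AACGTG on the other strand), and each window is written in the direction of transcription. The window of Ciart is chr3:95882179-95882478 (minus strand), that of Cry1 is chr10:85185005-85185304 (minus), that of Cry2 is chr2:92434020-92434319 (minus) and that of Bhlhe41 is chr6:145865371-145865670 (minus).
Ciart: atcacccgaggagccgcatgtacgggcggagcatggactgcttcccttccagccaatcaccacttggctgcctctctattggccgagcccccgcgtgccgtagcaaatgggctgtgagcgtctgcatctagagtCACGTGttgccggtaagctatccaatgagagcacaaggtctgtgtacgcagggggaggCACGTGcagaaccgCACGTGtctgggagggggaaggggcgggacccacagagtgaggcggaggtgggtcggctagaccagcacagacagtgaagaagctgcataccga
Cry1: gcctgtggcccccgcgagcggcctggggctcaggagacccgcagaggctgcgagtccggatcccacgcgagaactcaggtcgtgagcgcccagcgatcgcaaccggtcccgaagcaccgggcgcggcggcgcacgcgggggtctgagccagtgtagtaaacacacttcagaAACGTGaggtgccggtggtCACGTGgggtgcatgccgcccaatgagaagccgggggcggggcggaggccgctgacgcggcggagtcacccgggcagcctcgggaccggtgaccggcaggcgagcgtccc
Cry2: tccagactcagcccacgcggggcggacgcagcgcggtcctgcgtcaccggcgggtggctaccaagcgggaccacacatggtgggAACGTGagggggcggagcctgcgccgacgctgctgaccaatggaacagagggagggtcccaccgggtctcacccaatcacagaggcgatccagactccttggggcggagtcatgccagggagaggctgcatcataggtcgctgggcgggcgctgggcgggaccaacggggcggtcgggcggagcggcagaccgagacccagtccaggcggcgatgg
Bhlhe41: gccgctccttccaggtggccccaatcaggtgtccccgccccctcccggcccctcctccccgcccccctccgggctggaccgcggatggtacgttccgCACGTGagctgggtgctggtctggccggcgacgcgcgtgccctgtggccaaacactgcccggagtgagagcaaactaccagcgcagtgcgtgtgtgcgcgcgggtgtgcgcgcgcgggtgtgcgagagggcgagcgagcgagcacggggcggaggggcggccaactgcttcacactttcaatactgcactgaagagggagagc

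The Ciart window holds 3 E boxes, which begin at positions -116, -58 and -44 from the start. Of 32851 RefSeq windows of the same length, 7.15% hold at least 1 E box, and 29 windows, or 0.0883%, hold 3 or more (both strands searched). The Cry1 window holds 1 E box at -60 and 1 variant at -79. The Cry2 window holds no E box and 1 variant at -166, and that of Bhlhe41 holds 1 E box at -153. The variant is found in 4.68% of windows. D boxes (TTANGTAA, with N for any base), cyclic AMP elements (TGACGTCA) and ROR elements, searched on both strands, had no match in the 4 windows and are found in 2.32%, 1.79% and 0.384% of all windows. ROR elements known to act on mouse Cry1 lie in an intron, outside this window. A match is a stretch of letters and not a measured binding site.

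**Figure D1:**
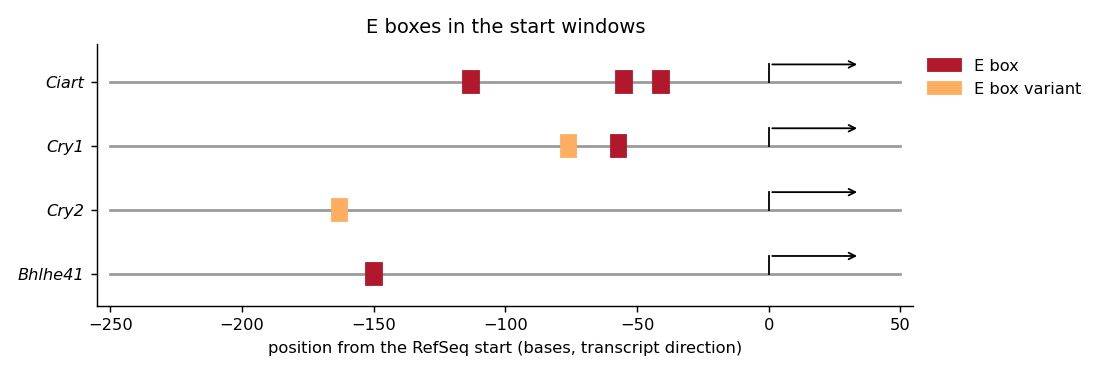
Positions of E boxes and of the variant in the 4 start windows, in bases from the RefSeq start, with transcription running to the right (arrows). Ciart has 3 E boxes, Cry1 has 1 with a variant beside it, Cry2 has 1 variant and Bhlhe41 has 1 E box.

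Libraries held 14073440 to 17492470 counts, and the 5 genes 63 (lowest count of Ciart) to 4322 (highest of Bhlhe41) per library. Intervals of counting error are not given, since the spread between mice includes it. A pair of libraries stood apart from the other 22. Mouse 3 of 6 h and mouse 3 of 15 h had 2.38% and 5.12% of their counts in ribosomal protein genes, against 1.18% to 1.68% elsewhere, and 3.34% and 0.837% in mitochondrial transcripts, against 3.84% to 6.81%. Their values lay at 49.3 and 200 on the first principal component, against -25.1 to -3.46, so results are given with all 24 libraries and with the 22. The 12 RPE markers, all of them detected, summed to 47900 CPM (counts relative to the library total after scaling by the trimmed mean of M-values) in that mouse of 6 h and 97300 CPM in that of 15 h, against 30100 to 42200 CPM in the 22. The 4 red blood cell markers summed to 3250 and 8720 CPM in these mice of 6 and 15 h, against 386 to 1860 CPM in the 22, and the 8 macrophage and mast cell markers to 1080 and 1100 CPM, against 813 to 991 CPM. The 10 rod markers, none at 0, summed to 288 to 3750 CPM in the 22, with 2350 to 3750 CPM at 0 h and at most 2050 CPM at each later time. In tissue samples such as these, fewer cells of a type and less RNA per cell cannot be told apart.

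Per kilobase of gene length, the mean level over 24 libraries was 38.1 CPM for Bhlhe40, 30.2 CPM for Bhlhe41, 13.2 CPM for Cry2, 8.99 CPM for Ciart and 7.25 CPM for Cry1. Between 66.7% (Cry1) and 93% (Bhlhe40) of the tested genes had a lower mean on that scale. All other levels below are CPM, which compare 1 gene across samples and not genes with each other. The library kit does not mark strand, so reads of antisense partners cannot be told from those of the gene. Bhlhe41 shares 19% of its exonic bases with the antisense gene Gm43909, which had 3 to 53 counts. For Cry2 the share is 4.67% (with D930015M05Rik, 0 to 19 counts), for Bhlhe40 it is 2.51% (with 0610040F04Rik, 0 to 18 counts), and Ciart and Cry1 share none.

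**Figure D2:**
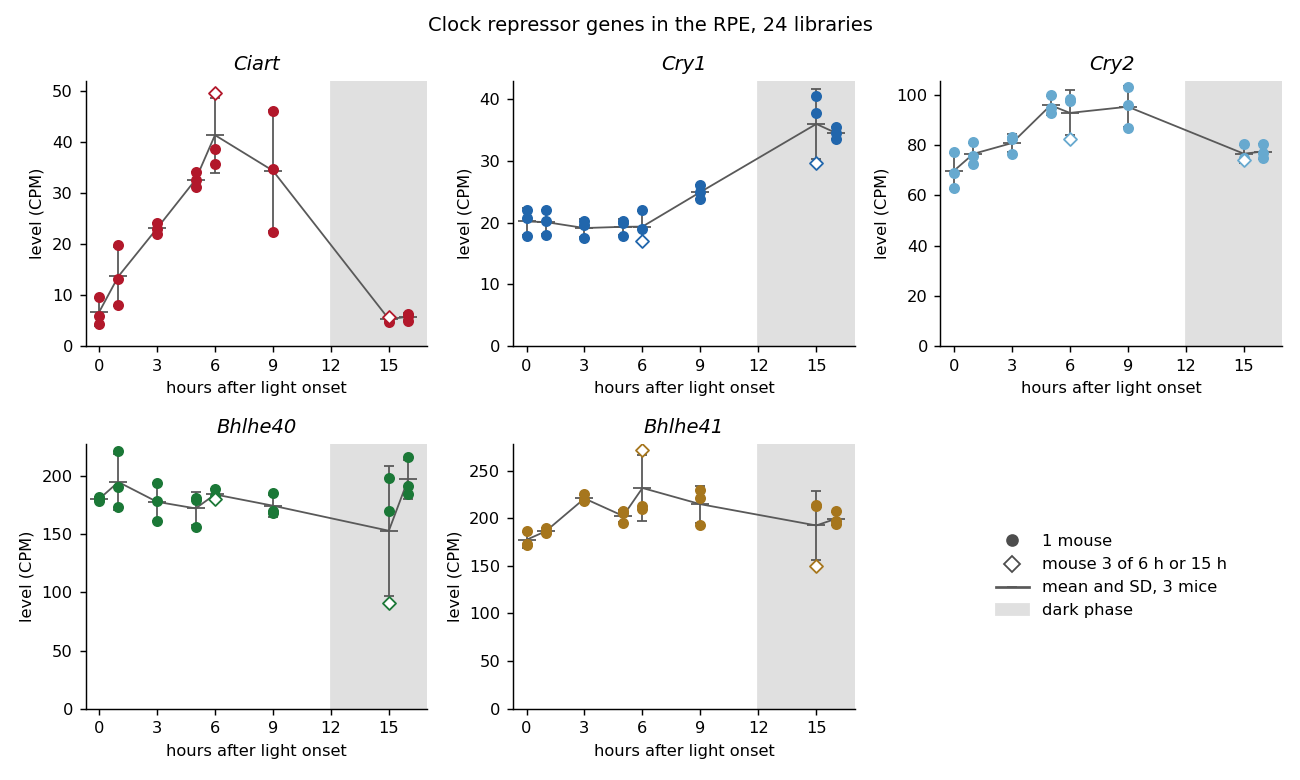
Levels (CPM) of the 5 genes in each of 24 mice against hours after light onset. Points are mice, open diamonds the 2 libraries that stood apart, bars the mean and SD of 3 mice, and grey the dark phase. Ciart is high from 5 to 9 h and lowest at night, Cry1 is highest at 15 and 16 h, Cry2 is highest from 5 to 9 h, and all but 1 value of the Bhlhe genes lie between 150 and 272 CPM.

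Ciart (ENSMUSG00000038550, chromosome 3, 95878503 to 95882251, minus strand) had the widest daily swing of the 5. Its mean level was higher at each time from light onset up to 6 h, and at 15 and 16 h its values overlapped those of light onset. The mice of 0 h had 5.82, 4.41 and 9.64 CPM, those of 1 h had 19.7, 8.12 and 13.1 CPM, and those of 3 h had 23, 22 and 24.1 CPM. The mice of 5 h had 31.1, 32.6 and 34.1 CPM, those of 6 h had 38.6, 35.7 and 49.6 CPM, and those of 9 h had 46, 22.3 and 34.7 CPM. At night it stood at 5.53, 4.63 and 5.68 CPM at 15 h and at 6.32, 4.98 and 5.93 CPM at 16 h. All 6 night values lay under the lowest of the 15 day values, 8.12 CPM, and values of 0 h overlapped those of the night and of 1 h. In the order of mean levels 6, 9, 5, 3, 1, 0, 16 and 15 h, only 5 and 3 h and 3 and 1 h were neighbours whose ranges did not overlap.

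Time as a whole was tested with edgeR's quasi-likelihood F test over the 8 times, with an adjusted p under 0.05 as the threshold (Benjamini-Hochberg, over the 18065 tested genes). Ciart passed, with 2.97 log2 units between its highest and lowest fitted time (7.83-fold, adjusted p = 5.99e-06), and with 2.88 in the 22 libraries (adjusted p = 4.09e-05). Of the 5 genes 2 passed in 24 libraries, Ciart and Cry1, where 1.08% of all tested genes did. In the 22 libraries 4 passed, Cry2 and Bhlhe41 as well, where 16% of all tested genes did. On the 24 libraries DESeq2 called 3 of the 5, Cry2 as well, and 10.7% of all tested genes, and limma-voom with quality weights called 4 and 48.5% of all. A second F test asked for a 24 h cosine shape. Ciart had a fitted peak-to-trough log2 ratio of 3.64 ± 0.29 (jackknife SE), a 12.4-fold ratio, with the peak at 7.0 ± 0.3 h (adjusted p = 1.18e-08), and 3.55 ± 0.30 with the same peak in the 22 libraries (adjusted p = 6.53e-08). A larger fitted ratio was found in 0.0664% of the tested genes in the 22. Ciart, Cry1 and Cry2, 3 of the 5, passed this test in 24 and in 22 libraries, where 1.67% and 6.36% of all tested genes did. On the 24 libraries DESeq2 called the same 3 and 4.22% of all tested genes, and limma-voom called 4, with Bhlhe41, and 9.14% of all. No library falls between 9 and 15 h or after 16 h, and 1 day was sampled, so the fitted hours rest on the cosine shape and recurrence was not tested.

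At night Ciart averaged 5.51 ± 0.618 CPM (SD, n = 6), against 29 ± 11.5 CPM by day (SD, n = 15). The log2 fold change of night over day was -2.30 ± 0.20 (SE, adjusted p = 1.37e-06), and -2.30 ± 0.23 in the 22 libraries (adjusted p = 1.58e-05). Of the 5 genes, 2 passed this comparison in 24 libraries, Ciart lower and Cry1 higher at night, where 1.39% of all tested genes passed. In the 22 libraries 3 passed, with Cry2 lower as well, where 4.67% of all did. On the 24 libraries DESeq2 called 2 of the 5 and 3.6% of all tested genes, and limma-voom called 3 and 11% of all. Markers of the inner retina, all 8 detected, summed to 1800 to 2110 CPM at night and 1530 to 1820 CPM by day in the 22 libraries, and those of the choroid endothelium, all 6 detected, to 261 to 396 CPM at night and 287 to 697 CPM by day. Their part in these differences was not tested. RPE markers summed to 34500 to 42200 CPM at night and 31300 to 41000 CPM by day.

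Mice of the same time differed in Ciart by unequal amounts. The coefficient of variation over 3 mice reached 42.6% among the mice of 1 h, with 40.9% among those of 0 h and 34.5% among those of 9 h. It was lowest among the mice of 3 h (4.49%) and of 5 h (4.54%). At 9 h mouse 1 had 46 CPM and mouse 2 had 22.3 CPM of Ciart. In the same 2 libraries Nr1d1, which encodes the repressor REV-ERB alpha, had 206 CPM in mouse 1 and 133 CPM in mouse 2, and the output factor Dbp had 441 CPM in mouse 1 and 353 CPM in mouse 2. Arntl, the gene of the activator, had 5.44 CPM in mouse 1 and 8.29 CPM in mouse 2. At 1 h mouse 1, with the highest Ciart of that time (19.7 CPM), had 153 CPM of Nr1d1, and mouse 2, with the lowest (8.12 CPM), had 114 CPM. Some values ran the other way. At 0 h mouse 2 had less Ciart than mouse 1 (4.41 and 5.82 CPM) but more Nr1d1 (140 and 119 CPM). The Period gene Per3 had 112 CPM in mouse 1 of 9 h and 117 CPM in mouse 2 of that time. These are values of single mice, picked after they were seen, with no test.

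Cry1 (ENSMUSG00000020038, chromosome 10, 85131700 to 85185064, minus strand), the late repressor, was level through the morning and rose towards the night. Its values were 22.1, 17.8 and 20.7 CPM at 0 h, 20.3, 22 and 18 CPM at 1 h, 20.2, 17.5 and 19.7 CPM at 3 h, and 17.8, 20.2 and 20 CPM at 5 h. They were 18.9, 22.1 and 17.1 CPM at 6 h and 23.9, 24.9 and 26.1 CPM at 9 h. At night they were 37.8, 40.6 and 29.6 CPM at 15 h, where the last is the mouse that stood apart, and 34.6, 35.5 and 33.6 CPM at 16 h. Every night value was above every value of the other 6 times, and each of the 3 mice of 9 h was above all mice of 0 to 6 h. In the order of means, 15, 16, 9, 0, 1, 5, 6 and 3 h, only 16 and 9 h and 9 and 0 h were neighbours without overlap.

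Over time Cry1 spanned 0.91 log2 units (1.88-fold, adjusted p = 0.000393), and 1.02 in the 22 libraries (adjusted p = 5.34e-07). Its 24 h component had a log2 ratio of 0.92 ± 0.07 (1.9-fold) with the peak at 15.3 ± 0.4 h (adjusted p = 1.4e-07), and 0.95 ± 0.06 with the peak at 15.2 ± 0.3 h in the 22 (adjusted p = 3.36e-09). Without the 6 libraries of 15 and 16 h the ratio was 0.87 and did not pass (adjusted p = 0.104). The night mean was 35.3 ± 3.74 CPM (SD, n = 6), against 20.6 ± 2.75 CPM by day (SD, n = 15), a log2 fold change of 0.78 ± 0.08 (SE, adjusted p = 5.23e-06), or 0.82 ± 0.06 in the 22 (adjusted p = 8.83e-09). The marker sums of inner retina and choroid endothelium given for Ciart stand beside this difference too, and their part in it was not tested. At 16 h Cry1 was 0.77 ± 0.13 log2 units above 0 h (adjusted p = 0.016), with rod markers at 347 to 1390 CPM at 16 h and 2350 to 3750 CPM at 0 h. The median log2 CPM of the rod markers in each library was then entered in the model as a term. With it the difference was 0.66 (adjusted p = 0.174). In the 22 libraries the difference was 0.76 with that term (adjusted p = 0.0057) and 0.77 ± 0.10 without (adjusted p = 0.000109). In 24 libraries this call ended on leaving out mouse 2 or mouse 3 of 0 h (adjusted p = 0.147 and 0.0985) or mouse 1, 2 or 3 of 16 h (0.085, 0.0712 and 0.0765), and in the 22 it held in all 22 leave-one-out fits.

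Cry2 (ENSMUSG00000068742, chromosome 2, 92403646 to 92434043, minus strand), the other cryptochrome, had a smaller swing with its high levels in the afternoon. Its values were 63.1, 69 and 77.3 CPM at 0 h, 75.5, 72.6 and 81.4 CPM at 1 h, and 76.6, 82.4 and 83.4 CPM at 3 h. They were 94.6, 100 and 92.9 CPM at 5 h, 97.5, 98.4 and 82.5 CPM at 6 h, and 103, 86.7 and 96.1 CPM at 9 h. At night they were 74.9, 80.6 and 74.2 CPM at 15 h and 77, 80.6 and 74.7 CPM at 16 h. In the order of means, 5, 9, 6, 3, 16, 15, 1 and 0 h, every neighbouring pair overlapped, and the mice that stood apart were the lowest of 6 h and of 15 h. Without them, all 8 values of 5 to 9 h, from 86.7 CPM up, lay above all 14 values of the other times, whose highest was 83.4 CPM.

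The 24 h component of Cry2 had a log2 ratio of 0.55 ± 0.09 (1.46-fold) and a peak at 8.4 ± 0.3 h (adjusted p = 0.00144), and 0.58 ± 0.08 at 8.5 ± 0.3 h in the 22 libraries (adjusted p = 3.33e-05). Without 0 h the ratio was 0.5 (adjusted p = 0.0341). Over time in general it spanned 0.46 log2 units and did not pass edgeR's test in 24 libraries (adjusted p = 0.0522), though it passed that of DESeq2 (adjusted p = 8.28e-05), and it spanned 0.49 and passed in the 22 (adjusted p = 0.000378). In the 24 it passed on leaving out mouse 3 of 6 h (adjusted p = 0.0208) or mouse 1, 2 or 3 of 15 h (0.0438, 0.0299 and 0.00965), in fits that called 1.74% to 6.79% of all tested genes. At night Cry2 averaged 77 ± 2.95 CPM (SD, n = 6), against 88.2 ± 9.78 CPM by day (SD, n = 15). This log2 fold change of -0.19 ± 0.06 did not pass (adjusted p = 0.122), while -0.20 ± 0.05 in the 22 did (adjusted p = 0.0195). The call in the 22 ended on leaving out mouse 1 of 15 h (-0.17, adjusted p = 0.175) or mouse 2 of 15 h (-0.23, 0.0536).

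The cryptochrome genes thus had their fitted peaks at different hours. The peak of Cry1 came 6.9 ± 0.4 h after that of Cry2 (jackknife SE; 6.7 ± 0.4 h in the 22 libraries) and 8.3 ± 0.5 h after that of Ciart. That of Cry2 came 1.4 ± 0.3 h after that of Ciart. The ratio of Cry1 to Cry2 within each library was tested between night and day, which does not depend on the scaling of the libraries. The log2 ratio was -1.13 ± 0.13 at night (SD, n = 6) and -2.10 ± 0.21 by day (SD, n = 15), where negative values mean fewer counts of Cry1 than of Cry2. Night values ran from -1.32 to -0.99 and day values from -2.41 to -1.72, with no overlap. The difference of 0.97 log2 units had p = 1.84e-05 in an exact two-sided permutation test over the 21 libraries, the smallest that test can give. Adjusted over the 2 pairs tested, p was 3.69e-05. In the 19 of these libraries that did not stand apart the difference was 1.00 (adjusted p = 0.000172). The test reassigns single libraries and not whole times, so its p does not measure the spread between times. Day ratios differed between times, with -2.18 to -1.72 at 1 h and -2.41 to -2.22 at 5 h. At 0 h, outside this test, the log2 ratio was -1.51, -1.95 and -1.90, the first of these between the day and night ranges and the others within the day range.

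Bhlhe40 (ENSMUSG00000030103, chromosome 6, 108660629 to 108666925, plus strand), a bHLH factor that answers to many signals besides the clock, did not pass the tests over time. Its values were 180, 182 and 178 CPM at 0 h, 173, 190 and 221 CPM at 1 h, and 178, 161 and 194 CPM at 3 h. They were 156, 179 and 181 CPM at 5 h, 183, 189 and 180 CPM at 6 h, and 185, 168 and 170 CPM at 9 h. At night they were 198, 170 and 90.5 CPM at 15 h and 191, 184 and 216 CPM at 16 h. The value of 90.5 CPM, from the mouse of 15 h that stood apart, is the lowest of all 24, and in the order of means, 16, 1, 6, 0, 3, 9, 5 and 15 h, every neighbouring pair overlapped. Its time means spanned 0.37 log2 units (adjusted p = 0.787), or 0.20 in the 22 libraries (adjusted p = 0.455). The span was 0.61 when mouse 1 of 15 h was left out of the 24 (adjusted p = 0.316) and 0.20 when mouse 3 of that time was. The 24 h ratio was 0.14 ± 0.08 (adjusted p = 0.83; 0.08 without mouse 3 of 1 h), or 0.16 ± 0.08 in the 22 (adjusted p = 0.437). The night mean was 175 ± 44.2 CPM (SD, n = 6), against 181 ± 15.3 CPM by day (SD, n = 15), a log2 fold change of -0.05 ± 0.11 (adjusted p = 0.818). In the 22 libraries the night mean was 192 ± 17.2 CPM (SD, n = 5), against 181 ± 15.9 CPM by day (SD, n = 14). The log2 fold change there was 0.07 ± 0.06 (adjusted p = 0.557), of the other sign. Leaving only mouse 3 of 15 h out of the 24 also gave 0.07 (adjusted p = 0.607), the 1 of 24 leave-one-out fits that turned the sign. DESeq2 and limma-voom called Bhlhe40 in none of these 3 comparisons.

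Bhlhe41 (ENSMUSG00000030256, chromosome 6, 145858243 to 145865558, minus strand), its paralog, was lowest at light onset and in the first hour. Its values were 173, 172 and 187 CPM at 0 h, 185, 184 and 190 CPM at 1 h, and 218, 219 and 225 CPM at 3 h. They were 205, 195 and 207 CPM at 5 h, 213, 210 and 272 CPM at 6 h, and 221, 193 and 230 CPM at 9 h. At night they were 213, 214 and 150 CPM at 15 h and 197, 194 and 207 CPM at 16 h. In the order of means, 6, 3, 9, 5, 16, 15, 1 and 0 h, every neighbouring pair overlapped. The mice that stood apart gave both the highest value, 272 CPM at 6 h, and the lowest, 150 CPM at 15 h. In the 22 libraries all mice of 3 to 16 h, from 193 CPM up, lay above all mice of 0 and 1 h, up to 190 CPM.

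Over time Bhlhe41 spanned 0.39 log2 units in 24 libraries and did not pass (adjusted p = 0.333), and it spanned 0.31 (1.24-fold) in the 22 and passed (adjusted p = 0.0116). All 22 leave-one-out fits of the 22 libraries kept that call (0.00266 to 0.0352). A fit of the 22 with the median log2 CPM of the rod markers as a term gave 0.0395. Beside it, rod markers were at 2350 to 3750 CPM at 0 h and 520 to 1420 CPM at 1 h, against 814 to 1650 CPM at 3 h. Its 24 h ratio was 0.34 ± 0.10 with a peak at 8.5 ± 0.9 h and did not pass (adjusted p = 0.218), and in the 22 it was 0.27 ± 0.08 at 9.6 ± 0.6 h (adjusted p = 0.0651). That value fell under the threshold without mouse 3 of 3 h (0.0389) or mouse 2 of 9 h (0.0158). Night and day differed by -0.10 ± 0.07 (adjusted p = 0.459; means 196 ± 23.9 CPM at night and 211 ± 22.4 CPM by day, SD, n = 6 and 15). In the 22 libraries the difference was -0.01 ± 0.04 (adjusted p = 0.956), with means of 205 ± 9.05 CPM at night and 207 ± 15.2 CPM by day (SD, n = 5 and 14). The log2 ratio of Bhlhe40 to Bhlhe41 was -0.20 ± 0.29 at night (SD, n = 6) and -0.22 ± 0.20 by day (SD, n = 15). The difference of 0.02 did not pass the exact two-sided permutation test (p = 0.853), and in the libraries that did not stand apart it was 0.10 (p = 0.289).

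**Figure D3:**
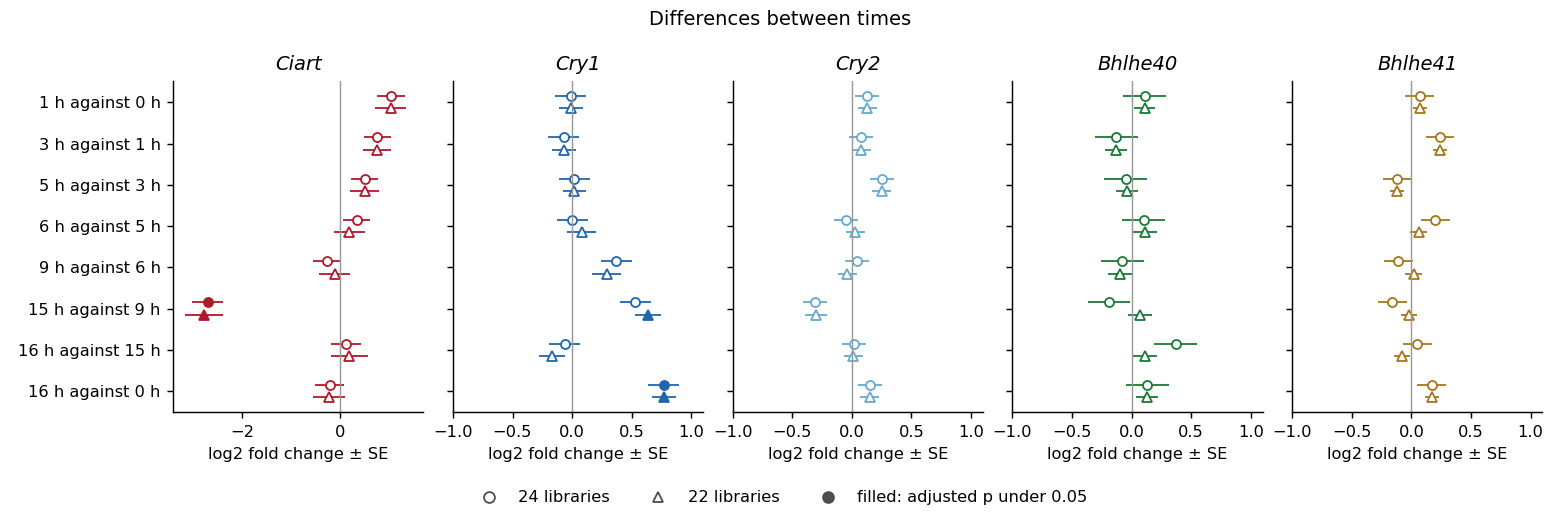
Log2 fold changes (± SE) of the 5 genes for 8 pairs of times, the later time over the earlier, in 24 (circles) and 22 libraries (triangles). Filled symbols passed at an adjusted p under 0.05. The values farthest from 0 are those of Ciart at 15 h against 9 h, -2.70 in 24 and -2.77 in 22 libraries.

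Neighbouring times were then compared, 3 mice against 3, with 1 model for all times. At 1 h against 0 h Ciart had a log2 fold change of 1.04 ± 0.29, which did not pass (adjusted p = 0.852). In that comparison edgeR called 0 of the 5 genes, where 0.0111% of all tested genes were called. At an unadjusted p under 0.05 it had 1 of the 5 and 711 of all genes. DESeq2 called 0 of the 5 and 11 of all genes. The call by limma-voom was 1 of the 5 (Ciart, 1.57, adjusted p = 0.00678), where it called 11.7% of all tested genes. With 22 libraries edgeR called 0 of 5 and 0.365% of all, but Ciart passed there without mouse 3 of 0 h (1.41, adjusted p = 0.0452), in a fit that called 1.94% of all. Without mouse 1 of 1 h the value of Ciart in 24 libraries was 0.68, and its alternatives gave adjusted p-values between 0.00678 and 1. Rod markers were at 520 to 1420 CPM at 1 h and 2350 to 3750 CPM at 0 h, and with rod markers as a term the value of Ciart was 0.81 (adjusted p = 0.728). Between 3 h and 1 h, with Ciart at 0.76 ± 0.28 (adjusted p = 1), edgeR called 0 of 5 against 0.0111% of all. Unadjusted it had 1 of the 5 and 418 of all genes, and either other tool called 0 of the 5. In the 22 libraries edgeR called 0 of 5 against 0.26% of all. This value of Ciart was 0.48 when mouse 2 of 1 h was left out and 1.12 when mouse 1 was. Between 5 h and 3 h edgeR called 0 of 5 against 0.0443% of all. Unadjusted it had 1 of the 5 (Cry2, 0.25 ± 0.10, adjusted p = 0.695) and 999 of all genes. DESeq2 called 0 of the 5 and 132 of all genes, and limma-voom called 1 (Cry2) and 4.25% of all. Within the 22 edgeR called 0 of 5 and 2.68% of all. Between 6 h and 5 h it called 0 of 5 and 0% of all, with 660 genes at an unadjusted p under 0.05, none of them among the 5, and 12 and 702 genes called by DESeq2 and limma-voom, again none of the 5, and 0 of 5 against 0.0443% in the 22 libraries. Between 9 h and 6 h edgeR called 0 of 5 against 0.0166% of all. Unadjusted it had 1 of the 5 (Cry1, 0.37 ± 0.13, adjusted p = 0.396) and 1556 of all genes. Either other tool called 0 of the 5, where limma-voom called 3908 genes. In the 22 libraries edgeR called 0 of 5 and 6.81% of all, with Cry1 at 0.29, or 0.17 without mouse 1 of 6 h.

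No library was taken between 9 and 15 h, the next pair of times. At 15 h against 9 h Ciart fell by 2.70 ± 0.31 log2 units (adjusted p = 0.000262), and its log2 fold change was -2.77 ± 0.38 in the 22 libraries (adjusted p = 0.00181). It was the 1 of 5 called in 24 libraries, where 0.288% of all tested genes were. Cry1 had a log2 fold change of 0.53 ± 0.13, which did not pass (adjusted p = 0.0899). In the 22, Cry1 rose by 0.64 ± 0.11 (adjusted p = 0.00362), which made 2 of 5 where 1.62% of all were called, and its call there ended without mouse 2 of 15 h (0.59, adjusted p = 0.0675). In 24 libraries Cry1 passed on leaving out mouse 1, 2 or 3 of 15 h (adjusted p = 0.0456, 0.0458 and 0.0193), in fits that called 12.7%, 14.8% and 0.432% of all tested genes, and Cry2, at -0.31 ± 0.10 (adjusted p = 0.127), on leaving out mouse 2 of 15 h (-0.35, adjusted p = 0.0407). In the 22, Cry2 passed on leaving out mouse 1 of 0 h (adjusted p = 0.0488), or instead mouse 3 of that time (0.0487) or mouse 2 of 9 h (0.0461), where 1.94%, 1.77% and 1.1% of all were called. DESeq2 and limma-voom each called Ciart, Cry1 and Cry2 in this step, and 4.68% and 3.73% of all tested genes.

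At 16 h against 15 h edgeR called 0 of 5 and 0% of all tested genes, with 0 of the 5 but 4214 of all genes at an unadjusted p under 0.05, and DESeq2 and limma-voom called 907 and 108 genes with 0 of the 5. With the 22 it called 0 of 5 and 0.0111% of all. Bhlhe40 stood at 0.37 ± 0.18 in 24 libraries (adjusted p = 0.224) and at 0.11 ± 0.10 in the 22 (adjusted p = 0.674). Without mouse 1 of 15 h, which leaves 2 mice there, 1 of them the library that stood apart, it was called at 0.61 ± 0.18 (adjusted p = 0.0331), in a fit that called 14.6% of all tested genes. At 16 h against 0 h Cry1 was the 1 of 5 called, where 0.116% of all tested genes were, and it was again the 1 of 5 in the 22 libraries, where 2.24% of all were. On the 24 libraries DESeq2 called Cry1 and 0.72% of all, and limma-voom called Cry1 and Bhlhe41 and 8.69% of all. Ciart, at 5.74 ± 0.691 CPM at 16 h and 6.62 ± 2.71 CPM at 0 h (SD, n = 3 each), had a log2 fold change of -0.21 ± 0.30 (adjusted p = 1), and Bhlhe41 had 0.17 ± 0.12 (adjusted p = 1), which limma-voom called at 0.18 (adjusted p = 0.0382) and which was -0.01 with rod markers as a term in the model.

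Beside the repressors, 28 other clock genes in 5 groups were read from the same fits. Over time 10 of the 28 passed in 24 libraries and 18 in the 22, and 10 and 13 had a 24 h component. Among activators 2 of 4 had one, Arntl (2.22 ± 0.17, peak 21.2 ± 0.1 h) and Npas2 (2.04 ± 0.18, 22.7 ± 0.4 h), both with fitted peaks in hours that were not sampled. Clock had one too in the 22 libraries (0.70, adjusted p = 0.000309). Of 3 period genes, whose proteins pair with cryptochromes, Per2 had a component (1.51 ± 0.25, peak 9.6 ± 0.6 h), and Per1 varied over time (adjusted p = 5.99e-06) without one (adjusted p = 0.215). Per3 had a ratio of 1.08 ± 0.13 that did not pass in 24 libraries (adjusted p = 0.055) and 1.14 in the 22, which passed (adjusted p = 1.07e-07). Of the nuclear receptors that act at ROR elements, the repressors Nr1d1 (1.93 ± 0.18, peak 5.0 ± 0.4 h) and Nr1d2 (0.83 ± 0.10, 8.2 ± 0.7 h) had components. The 3 PAR bZIP factors and Nfil3, which competes for their sites, all had one, Dbp at 7.5 ± 0.4 h, Tef at 10.3 ± 0.7 h, Hlf at 10.7 ± 0.8 h and Nfil3 at 19.4 ± 0.4 h. The last list held 12 genes, those for cryptochrome turnover and clock kinases together with Timeless and Cipc. Of these, Usp2, a deubiquitinase, varied over time in 24 libraries (adjusted p = 0.0144). In the 22 libraries 4 of the 12 varied over time, where 16% of all tested genes did. In 24 libraries edgeR found a 24 h component in 0 of these 12 and in the 22 in 1, Cipc (0.52, adjusted p = 0.00088). The median 24 h log2 ratio was 0.55 for the 5 repressors and 0.33 for all tested genes. It was higher for the activators (1.41), period genes (1.2), REV-ERB and ROR receptors (0.83) and PAR bZIP factors with Nfil3 (1.16). The 12 genes of the last list had a median of 0.20.

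**Figure D4:**
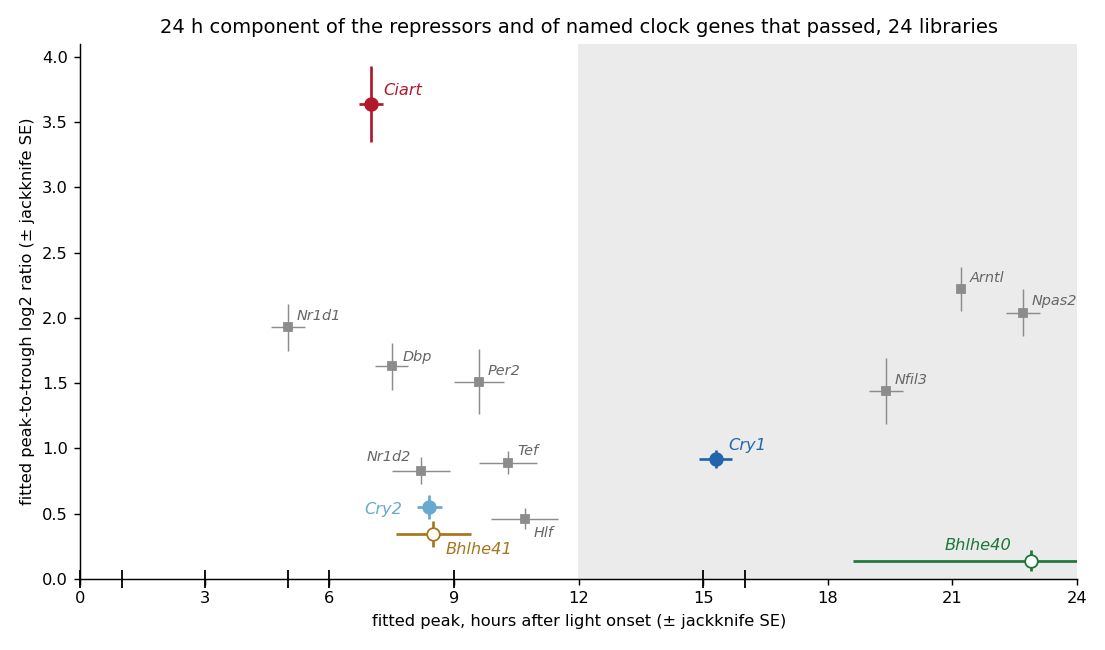
Fitted peak-to-trough log2 ratio against fitted peak hour (± jackknife SE) for the 5 repressors (circles, filled where the 24 h component passed) and for the other clock genes named here that passed (grey squares), in 24 libraries. Grey marks the dark phase and ticks on the axis the 8 sampled times, and the bar of Bhlhe40 runs past the end of the axis. Ciart lies at 3.64 and 7.0 h, Cry2 at 0.55 and 8.4 h and Cry1 at 0.92 and 15.3 h.

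Genes whose levels followed each repressor most closely were then listed by Pearson's r of log2 CPM over the 22 libraries, among the 11989 genes that averaged 5 CPM or more. The genes share the libraries and the 8 times, so r describes likeness over the day and is given without a p. For Ciart the 5 most alike were Dbp (r 0.94, and 0.93 over 24 libraries), Pfn2 (0.88 and 0.87), Etv5 (0.85 and 0.76), Scarb1 (0.85 and 0.68) and Plin2 (0.84 and 0.69). Dbp is a known target of the activators through E boxes, Scarb1 is a receptor for high-density lipoprotein and Plin2 coats lipid droplets. Proser2 ran most nearly opposite (-0.93 and -0.88), with Syne1 next (-0.93, but -0.26 over 24).

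For Cry1 those most alike included Otud1 (0.94, but 0.43 over 24 libraries), Fmo2 (0.93 and 0.91), Tprkb (0.92 and 0.83) and Wee1 (0.89 and 0.63). Wee1 encodes a cell cycle kinase. Nr1d1 was the most opposite (-0.88 and -0.84), followed by Olfm2 (-0.85 and -0.79). For Cry2 the 5 were Pnpla7 (0.88 and 0.64), Nr1d2 (0.88 and 0.74), Tef (0.88 and 0.64), Wnk4 (0.86 and 0.53) and Zfp783 (0.86 and 0.76), with Pcdhac2 (-0.91, but -0.13 over 24) and 0610009B22Rik (-0.89 and -0.88) opposite. Nr1d2, which encodes REV-ERB beta, and the PAR bZIP factor Tef are themselves clock genes. For Bhlhe41 r was lower, with Lonrf1 at 0.77 (0.66 over 24), E130317F20Rik at 0.75 (0.39), Cstb at 0.73 (0.07), Car5b at 0.72 (0.51) and Plscr1 at 0.71 (0.84), and Lpcat1 (-0.75 and -0.79) and Dlg4 (-0.75, but 0.15) opposite. None of the named most alike genes of Bhlhe41 belongs to the clock lists, while 1 of 5 does for Ciart and 2 of 5 for Cry2.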

How the data were processed

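Total RNA of RPE from 24 mice, 3 at each of 8 times, was sequenced with a NEBNext Ultra kit, per the labels' protocols. The authors deposited raw counts per gene in 1 table. STAR, HTSeq and build mm10 are named in the submitters' processing notes, with versions not given in the sources used here. Whether mice of 0 h were taken before or after the lights came on is not given either. Columns were matched to samples by clock hour and mouse number, and no pair of libraries agreed within sampling noise.

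Counts were filtered with edgeR 4.0.16 (minimum count 10), which kept 18065 genes with 99.92% of the counts, scaled by the trimmed mean of M-values (TMM) and tested with quasi-likelihood F tests in R 4.3.3, all times sharing 1 estimate of the spread. Adjustment was by Benjamini and Hochberg's method, over the 18065 genes. Peak hours and ratios come from a 24 h cosine fit, with a jackknife SE over libraries. The exact permutation test covered 54264 arrangements. The step from 16 h to 0 h and the other 7 steps share libraries with their neighbours. Code was tested on simulated data. P-values of the edgeR tests set differences between times against a spread between mice that all times share. Those of the permutation test come from reassigning single libraries, not whole times, to night or day.

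The members and gene lists were chosen with earlier results of these data known. The text names the 5 members, for each member that passed a test the 5 genes most like it and the 2 most opposite, and from 28 other clock genes those that passed in 24 libraries, with Clock, Per3 and Cipc, which passed in the 22, added after their values were seen. Some items that the rule would name are not reported here. Alternatives were RLE scaling, no filter, DESeq2 1.42.0, limma-voom (limma 3.58.1), a block on mouse number, a rod marker covariate, times left out and each library left out. Leave-one-out fits and the block, covariate and RLE fits within the 22 libraries were added after seeing the data.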

Additional observations from a re-analysis of the deposited data

How the results depend on the processing

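Ciart and Cry1 passed the test over time in all 57 alternative fits, and the night against day comparison in all 56. The count of the 5 genes that vary over time was 2 with all libraries, where 1.08% of all tested genes passed. It was 4 without the libraries that stood apart (16% of all) and with limma-voom (48.5%). In the 22 libraries it was also 4 with a replicate block (14.9%), the rod marker covariate (12.2%) or RLE scaling. Over leave-one-out it ran from 2 to 3 in the 24 (0.681% to 6.79% of all). In that of the 22 it stayed at 4 (12.2% to 18.2%). Adjusted p over the alternatives ran from 7.48e-06 to 0.281 for Cry2 (32 of 57 called), 0.000888 to 0.718 for Bhlhe41 (27 of 57) and 0.281 to 0.884 for Bhlhe40 (0 of 57), whose span ran from 0.17 to 0.61. Cry2 passed the 24 h test in 58 of 58 fits and Cry1 in 57 of 58, without 15 and 16 h being the exception (0.104), which removes the times of its highest levels. Bhlhe41 passed it in 3 of 58, among them limma-voom (0.0201).

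Night against day was called for Cry2 in 25 of 56 fits (0.00312 to 0.333). Bhlhe40, at -0.05, turned to 0.07 without the libraries that stood apart and to 0.08 with limma-voom and in the 22 libraries with the block, the covariate or RLE scaling, and ran from -0.17 to 0.07 over leave-one-out of 24 and 0.02 to 0.13 over that of 22. Bhlhe41, at -0.10, ran from -0.15 to -0.03 and from -0.03 to 0.00, and stood at 0.00 in the 22 with the block. The log2 ratio of Bhlhe40 to Bhlhe41 differed by -0.02, night minus day, with 0 h counted in the day. Over leave-one-out this difference ran from -0.03 to 0.13, while that in the log2 ratio of Cry1 to Cry2 ran from 0.94 to 1.01. None of these sign changes was past the threshold.

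Among steps, limma-voom called 1 of the 5 for 1 h against 0 h and 1 for 5 h against 3 h, with 2107 and 767 of all tested genes. For 15 h against 9 h the count of 1 (0.288% of all tested genes) became 2 in the 22 libraries (1.62%). It was also 2 in the 22 with the block (1.42%), the covariate or RLE scaling. DESeq2 and limma-voom called 3 (4.68% and 3.73%). Leave-one-out gave 1 to 3, in fits that called 0.0443% to 14.8% in the 24 and 0.194% to 1.94% in the 22. Cry1 was called there in 30 of 56 fits (0.000398 to 0.293). For 16 h against 0 h the count of 1 (0.116% of all) was 0 with the rod covariate in 24 libraries (0.0775%), where Bhlhe41 stood at -0.01. With limma-voom it was 2 (8.69%). Over leave-one-out it ran from 0 to 1, as did the counts for 16 h against 15 h and 1 h against 0 h. Cry1 was called at 16 h against 0 h in 50 of 56 fits (7.52e-07 to 0.174). The cause of these changes was not tested.

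Whether mouse numbers pair the libraries was not tested. Same-numbered libraries of different times had correlations of their deviations from -0.317 to 0.535, with 17 of 84 over 0.1. Their median was 0.0163, against -0.00548 for libraries with other numbers, and 12 of 24 libraries correlated best with their own number. Both libraries that stood apart are of mouse 3. With mouse number as a replicate block in 24 libraries, 2 of the repressors varied over time, where 0.792% of all tested genes did. Of the repressors, 3 had a 24 h component (1.47% of all tested genes) and 2 differed between night and day (1.25%). These counts of repressors were the same without the block.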
